A study of Mus musculus with 8 samples.

Results

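The genes described here are the mouse Zfp genes, named Zfp followed by a number, which encode zinc finger proteins. They were measured by ChIP-seq of H3K27me3, trimethylation of lysine 27 of histone H3. The authors' table holds read counts over intervals that each run along an annotated transcript from start to end, introns included. An interval was taken as a Zfp gene where its span best matched that gene's RefSeq span on mm10, with an overlap of at least 0.5 of their union, and 1 interval was used per gene. RefSeq lists 262 such genes on the chromosomes that the table covers with Zfp genes (1 to 10 and X), and 241 of them had an interval, out of 20287 named genes in all. The other 21 had none that matched, and the rest of the 414 Zfp genes that RefSeq lists lie on chromosomes not analysed here. Of the 241 members, 237 are protein coding, 2 are pseudogenes and 2 are long non-coding RNA genes, of which Zfp335os overlaps Zfp335 and shares its reads there. A further 1 gene that the selection leaves out is not reported here.

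The cells were E14tg2a mouse embryonic stem cells of 129SV background, in 2 clones called A and B. Both clones carry a cRAF-ErT2 cassette, a RAF kinase that 4-hydroxytamoxifen (4OHT) switches on and that then activates ERK. All libraries came from cells kept in serum with LIF and Chir99021 (2 µM), which inhibits GSK3. For 24 h before treatment Chir99021 was replaced by PD173074 (250 nM), which blocks FGF receptors. The 0 h groups had no 4OHT, and the 2 h groups had 250 nM 4OHT for 2 h. Each time has 2 libraries, 1 per clone, so a clone at a time is 1 library, and both clones derive from 1 line. P-values therefore reflect how these particular libraries scatter, and that scatter may be technical. The 4 input libraries of the series were not analysed here. Column totals ran from 70378127 to 92518605 counts, and a read can be counted in several overlapping intervals. The median Zfp gene held 215 to 275 counts per library. Of 8 stem cell marker genes, 0 were marked with H3K27me3 by the limit given below, and Utf1 came nearest at 3.06 times the median gene. Marked were 1 of 8 genes of fibroblasts or feeder cells (Thy1), 1 of 3 of primitive endoderm (Sox17) and 0 of 4 used in all cells. A histone mark does not measure expression, so this checks only where the mark lies.

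H3K27me3 is placed by Polycomb repressive complex 2 and lies over genes that are held silent, above all developmental regulators with CpG-rich promoters. Most Zfp genes encode C2H2 zinc finger proteins, in which each finger is folded around a zinc ion and several fingers together read a DNA sequence. Many also carry a KRAB domain, which recruits Trim28 and, through it, the H3K9 methyltransferase Setdb1, and these have multiplied in tandem clusters along the chromosomes. KRAB zinc finger proteins silence retroelements and protect imprints in stem cells, whereas their own loci are known for H3K9 methylation over the exons that encode the fingers.

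Promoter sequences were taken from RefSeq (GRCm38.p6, the assembly of mm10), as windows of 300 bases that run from 250 before to 50 after the annotated start. The sequences shown are first those of the 2 densest and the 2 least dense members that have a promoter entry at the start of their interval. The last is of Zfp804a, where the start of the interval stood out from the rest. The annotated start of its window lies 1311 bp from the interval start, beyond the 500 bp allowed for the other promoters. They are written 5′ to 3′ on the strand of the gene, with each CG dinucleotide in capitals.
Zfp579, chr7:4996052-4996351, minus strand: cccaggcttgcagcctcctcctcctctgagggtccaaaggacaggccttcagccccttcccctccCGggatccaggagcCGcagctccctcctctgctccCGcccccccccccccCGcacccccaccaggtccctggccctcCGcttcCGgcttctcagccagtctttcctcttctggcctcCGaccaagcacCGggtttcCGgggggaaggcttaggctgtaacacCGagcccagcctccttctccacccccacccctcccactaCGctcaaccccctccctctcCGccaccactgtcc
Zfp853, chr5:143293485-143293784, minus strand: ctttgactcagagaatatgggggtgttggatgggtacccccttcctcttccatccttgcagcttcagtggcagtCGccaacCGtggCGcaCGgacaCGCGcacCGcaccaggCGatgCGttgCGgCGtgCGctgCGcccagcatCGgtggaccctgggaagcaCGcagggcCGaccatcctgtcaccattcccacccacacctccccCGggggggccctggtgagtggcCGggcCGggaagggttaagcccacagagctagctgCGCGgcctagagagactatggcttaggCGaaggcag
Zfp781, chr10:81930463-81930762, minus strand: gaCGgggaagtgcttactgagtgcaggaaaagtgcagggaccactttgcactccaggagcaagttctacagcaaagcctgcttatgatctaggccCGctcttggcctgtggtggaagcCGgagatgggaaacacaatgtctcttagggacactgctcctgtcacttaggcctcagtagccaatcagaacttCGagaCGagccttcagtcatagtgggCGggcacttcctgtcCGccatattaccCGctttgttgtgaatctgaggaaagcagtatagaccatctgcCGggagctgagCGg
Zfp433, chr10:81704575-81704874, plus strand: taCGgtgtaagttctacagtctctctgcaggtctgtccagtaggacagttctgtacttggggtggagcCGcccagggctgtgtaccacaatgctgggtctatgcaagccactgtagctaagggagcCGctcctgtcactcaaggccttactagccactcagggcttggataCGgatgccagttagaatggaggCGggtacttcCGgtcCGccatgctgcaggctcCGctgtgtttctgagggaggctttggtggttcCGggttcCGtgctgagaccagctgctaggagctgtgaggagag
Zfp804a, chr2:82053408-82053707, plus strand: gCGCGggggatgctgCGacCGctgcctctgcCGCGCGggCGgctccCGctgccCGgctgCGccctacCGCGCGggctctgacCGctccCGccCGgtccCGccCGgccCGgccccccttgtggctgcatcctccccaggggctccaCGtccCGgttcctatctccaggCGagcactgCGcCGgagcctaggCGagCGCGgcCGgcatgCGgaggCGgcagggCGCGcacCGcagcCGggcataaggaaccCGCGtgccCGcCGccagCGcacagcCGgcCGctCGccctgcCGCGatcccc
The windows hold 12 CG in Zfp579, 22 in Zfp853, 10 in Zfp781, 10 in Zfp433 and 45 in Zfp804a.

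Zfp genes carried less H3K27me3 than the typical gene. Density was expressed as the count per kb of interval and per 1000000 counts of the column total. The median Zfp gene had a density of 0.164 ± 0.00730 (SD of the median over the 4 libraries), against 0.358 ± 0.00280 for all 20287 named genes, a ratio of 0.459. The Zfp median was 0.158 and 0.162 at 0 h in clones A and B, and 0.156 and 0.173 at 2 h. In every library it lay below the median of all genes, which ran from 0.351 to 0.358. Of the 241 Zfp genes, 188 (78.0%) fell below the median gene, where 50% of all genes do by definition. Protein coding genes as a whole had a median of 0.80 times the median gene.

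Few Zfp genes were dense in the mark. The limit for a marked gene was set at a density of 1.43, which is 4 times that of the median gene. By this limit 12 Zfp genes (4.98%) were marked, beside 5.77% of all genes, and per library the number ran from 11 to 13. At 2 times the median gene there were 27 Zfp genes (11.2%), beside 18.8% of all genes, and at 8 times 3 (1.24%), beside 1.97%. At each of these 3 limits the share of Zfp genes was below that of all genes, by little at 4 times. These counts are a description with no test. Densities ran from 0.0326 to 12.1 times the median gene, and the ranks of members kept close between libraries (Spearman's rho across 241 genes from 0.954 between clones to 0.981 within clone B). The libraries share gene length and the genome's sequence, which raises these correlations.

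**Figure D1:**
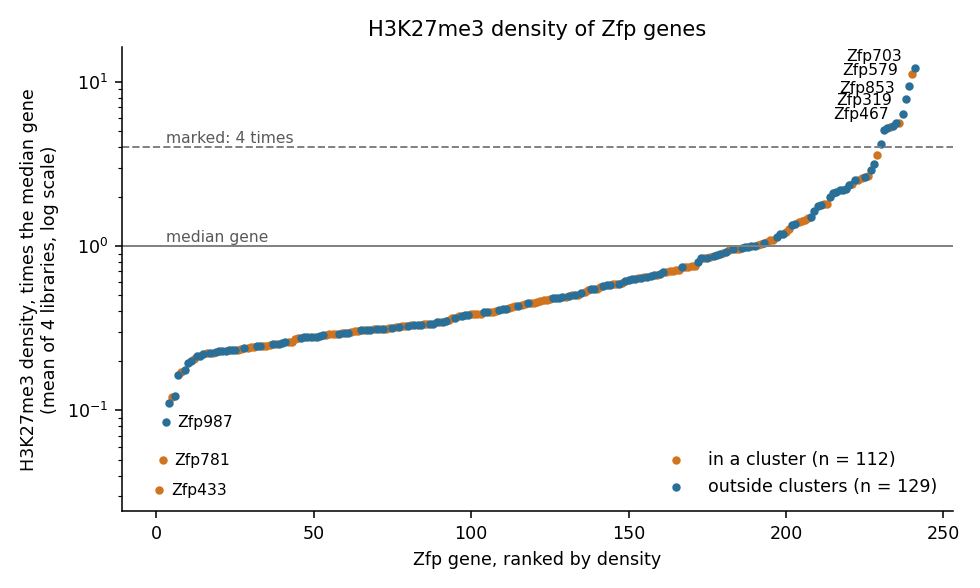
Each point is a Zfp gene, ranked by its mean H3K27me3 density over 4 libraries (vertical axis, times the median gene, log scale), with members of tandem clusters in orange and others in blue. Of the 241 points, 188 lie under the solid line at the median gene and 12 reach the dashed line at 4 times.

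Zfp703, a co-repressor of the NET family known from neural and breast tissue, had the highest density (chromosome 8, 26977336 to 26981462). It measured 4.33 and 3.94 at 0 h in clones A and B, and 4.65 and 4.33 at 2 h. Zfp579 (chromosome 7, 4992852 to 4996101) measured 4.31 and 3.19 at 0 h and 4.78 and 3.70 at 2 h. Clone A was above clone B at both times in each of these genes, and by a wider margin in Zfp579. Zfp853 (chromosome 5, 143285999 to 143293534) measured 3.36 and 3.14 at 0 h and 3.70 and 3.25 at 2 h. These 3 genes were the members at 8 times the median gene or more, and their lowest library lay at 3.14.

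Zfp319 followed at 3.05 and 2.53 at 0 h and 2.93 and 2.73 at 2 h. Its interval overlaps the ends of Tepp (1.31% of it) and Usb1 (4.02%), whose reads it shares there. Zfp467, which steers mesenchymal progenitors between bone and fat, measured 2.14 and 2.30 at 0 h and 2.27 and 2.40 at 2 h, and here clone B was the higher one. Zfp768 measured 1.97 and 1.67 at 0 h and 2.47 and 1.95 at 2 h. It showed the widest spread over the 4 libraries after Zfp579 among the 12 (SD 0.334 and 0.695). Zfp9 was steadier, at 1.91 and 1.99 at 0 h and 1.99 and 2.16 at 2 h.

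Zfp316 measured 2.04 and 1.65 at 0 h and 2.19 and 1.78 at 2 h, Zfp575 1.68 and 1.96 at 0 h and 1.90 and 2.08 at 2 h. The interval of Zfp575 overlaps the end of Ethe1 over 2.60% of its length. Zfp36l3, an X-linked CCCH protein of rodent placenta that binds AU-rich messenger RNA, is no DNA-binding C2H2 factor, and measured 1.98 and 1.74 at 0 h and 2.10 and 1.66 at 2 h. Zfp648 measured 1.90 and 1.79 at 0 h and 1.94 and 1.70 at 2 h. Zfp358 stood nearest to the limit, with 1.41 and 1.48 at 0 h and 1.5 and 1.57 at 2 h, and was just under it in clone A at 0 h. Just outside were Zfp865 at 3.60 times, Zfp541, a factor of male meiosis, at 3.18 times and Zfp46 at 2.90 times the median gene.

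**Figure D2:**
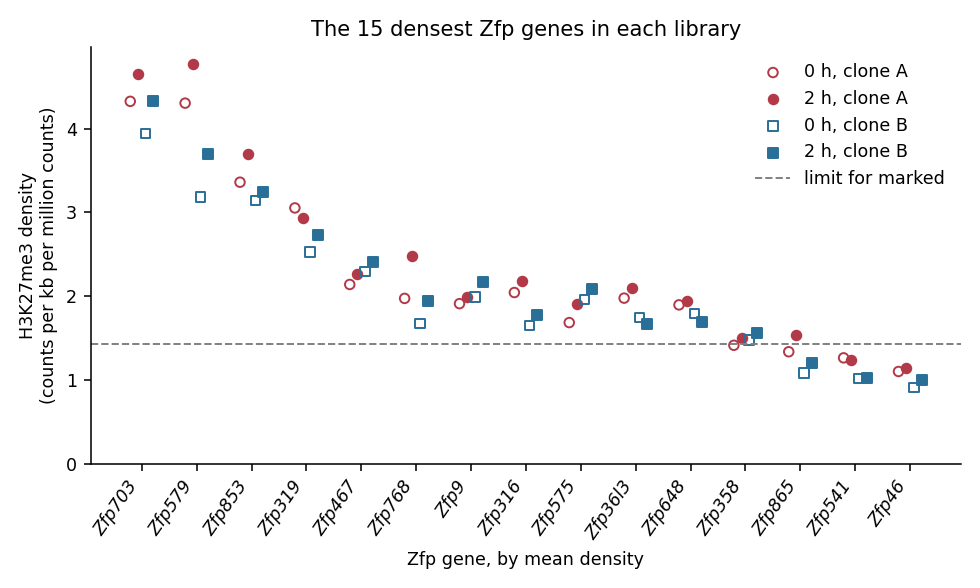
H3K27me3 density (vertical axis, counts per kb per 1000000 counts) of the 15 densest Zfp genes in each of the 4 libraries, with open symbols for 0 h, filled symbols for 2 h, red circles for clone A and blue squares for clone B. Zfp703, Zfp579 and Zfp853 sit above 3 in every library, and Zfp358 straddles the dashed limit at 1.43.

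The marked members were short. Of the 12, 9 were under 10 kb, and their median length was 4971 bp against 17152 bp for all members. Among Zfp genes under 10 kb, 9 of 48 (18.8%) were marked, beside 10.3% of all genes of that length. Between 10 and 30 kb, 3 of 137 (2.19%) were marked, beside 4.04%, and from 30 kb up 0 of 56, beside 0.783%. A density is averaged over the whole transcript, so that a short dense stretch counts for less in a long gene.

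At the low end stood Zfp433 and Zfp781, neighbours on chromosome 10. Zfp433 held 13 and 23 counts at 0 h in clones A and B, and 10 and 19 at 2 h, over 17152 bp. Zfp781 had a density of 0.0174 and 0.0189 at 0 h and 0.0163 and 0.0185 at 2 h. Zfp987 (0.0844 times the median gene), Zfp972 (0.110) and Zfp534 (0.121) came next. Zinc finger genes include many close copies, and how the authors counted reads that match several copies is not given; the part of this in the low values was not tested.

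Inner intervals of the same gene showed that the mark could be uneven along a gene. For 45 members the table also holds an interval that begins downstream of the gene start and ends with the gene, which leaves a start segment of 1 to 10 kb, with a median of 3230 bp. This split was chosen after the values were seen and is a description. The start was denser than the rest in 28 of 45 and at least 2 times as dense in 8, and in 5 it was at most 0.5 times as dense. Of the 8, Zfp433 held only 1 to 6 counts per library in its start. Zfp629 rests on clone B, with 1.11 at its start against 0.412 in the rest at 0 h, and 1.31 against 0.391 at 2 h. In clone A it had 0.503 against 0.392 at 0 h and 0.630 against 0.529 at 2 h. The median ratio of start to rest was 1.07. The same counts over all genes are not given here, so nothing particular to Zfp genes is read from these.

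Zfp804a, a brain-expressed gene whose human counterpart is linked to schizophrenia risk, had the steepest tilt toward its start. Over the whole interval it reached 0.889 times the median gene. The first 1311 bp of the interval (chr2:82052347-82053657) measured 3.0 and 2.47 at 0 h in clones A and B and 2.83 and 2.49 at 2 h. That is 7.54 times the median gene. The rest of the interval measured 0.315 and 0.298 at 0 h and 0.289 and 0.310 at 2 h. The dense stretch overlaps the CG-rich promoter window printed above, with 45 CG in 300 bases. The annotated start of that window lies 1311 bp into the interval, so the dense stretch lies upstream of it. Zfp536, a repressor of neuronal differentiation, was similar: its first 3611 bp (chr7:37770563-37774173) measured 3.80 and 3.46 at 0 h and 3.62 and 3.24 at 2 h, 9.87 times the median gene, while the rest stood at 2.17 times. Zfp541 had a start at 4.30 times and a whole gene at 3.18 times. In these 3 genes the start passed the limit for marked and the whole gene did not. Zfp69 stood at 2.55 times at its start, under the limit, and at 0.361 times in the rest. Its ratio of start to rest was 7.06, next after 8.91 in Zfp804a and above 4.55 in Zfp536.

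The reverse was seen in Zfp865, where the last 4608 bp measured 3.03 and 2.44 at 0 h and 3.45 and 2.77 at 2 h, 8.17 times the median gene. The upstream remainder of Zfp865 stood at 1.04 times. Zfp46 had 0.413 times at its start and 3.47 times in the rest. Within Zfp467 an inner interval of 6321 bp reached 10.9 times the median gene, against 3.94 times in the flanks. An interval named Zfp648 that begins upstream of the member interval reached 9.03 times over 4488 bp, where the member interval had 5.12 times.

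**Figure D3:**
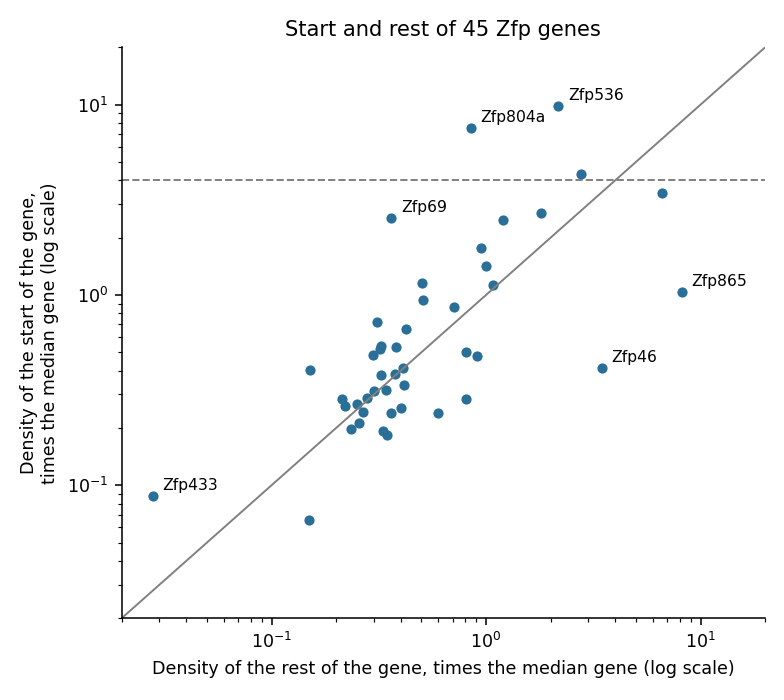
Density of the start of the gene (vertical axis) against that of the rest of the gene (horizontal axis) for 45 Zfp genes, both in times the median gene on log scales and as means of 4 libraries, with the solid line at equality and the dashed line at 4 times. Zfp804a, Zfp69 and Zfp536 lie far above the line of equality, and Zfp865 and Zfp46 far below it.

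The members were unevenly spread over the genome, with 90 of 241 on chromosome 7. Chaining members whose gap was at most 250 kb and keeping chains of 4 or more gave 18 clusters with 112 members, 10 of them on chromosome 7. Clustered members had a median of 0.449 times the median gene and the 129 others 0.485 times; with clusters of 6 or more members this order turned, at 0.489 times inside and 0.430 times outside. Of the clustered members 3 were marked (2.68%), and of the others 9 (6.98%). Low density was thus found inside and outside clusters.

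Clusters differed from each other. The Zfp579 cluster on chromosome 7 (4915173 to 5048733) had the highest median, at 1.42 times the median gene over 6 members, in the order Zfp628, Zfp579, Zfp524, Zfp865, Zfp784 and Zfp580. Within it density ran from 0.459 times in Zfp524 to 11.2 times in Zfp579, so adjacent genes differed widely. The Zfp783 cluster on chromosome 6 had a median of 1.03 times over 8 members, from Zfp212 (0.312) to Zfp783 (2.59). The Zfp768 cluster on chromosome 7 had a median of 1.01 times over 10 members, from Zfp646 (0.172) to Zfp768 (5.64). The other 15 clusters all had medians of 0.604 times or less.

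The lowest cluster medians were 0.253 times for the Zfp985 cluster on chromosome 4 (5 members, lowest Zfp534), 0.275 times for the Zfp873 cluster on chromosome 10 (4 members, lowest Zfp433) and 0.303 times for the Zfp974 cluster on chromosome 7 (8 members, lowest Zfp59 at 0.242). The largest cluster, named after Zfp30 on chromosome 7, had 14 members and a median of 0.316 times, with Zfp30 itself at 1.81 times and Zfp146 at 0.224 times. In some of these clusters 1 or a few members stood apart from a low majority. Examples are Zfp964 (2.54 times in a cluster whose median is 0.314), Zfp872 (2.68 against 0.467) and Zfp575 (5.33 against 0.451). In others the members lay closer together, as in the Zfp976 cluster (0.280 to 0.356 times) and the Zfp442 cluster (0.204 to 0.584 times).

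Other named genes lie between clustered members in 12 clusters, some of them zinc finger genes under other names. These others had the higher median in 10 of the 12. Over the whole table other named genes stood at 1.01 times and Zfp genes at 0.459 times, so this order is not particular to clusters. The Zfp974 and Zfp976 clusters hold only 1 other gene each and the Zfp30 cluster 2. In the Zfp579 cluster the medians were close (1.52 against 1.42). In the Zfp575 cluster the 13 other genes had a median of 1.91 times the median gene, led by Tescl at 7.43 times, against 0.451 for its Zfp genes. In the Zfp658 cluster the 13 others had 1.85 times against 0.385, and in the Zfp872 cluster the 10 others had 1.69 times against 0.467. The order was the opposite in the Zfp768 cluster, with 0.354 times in 25 other genes and 1.01 times in its 10 Zfp genes, and in the Zfp442 cluster, with 0.207 times in 4 other genes and 0.473 times in its 4 Zfp genes.

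**Figure D4:**
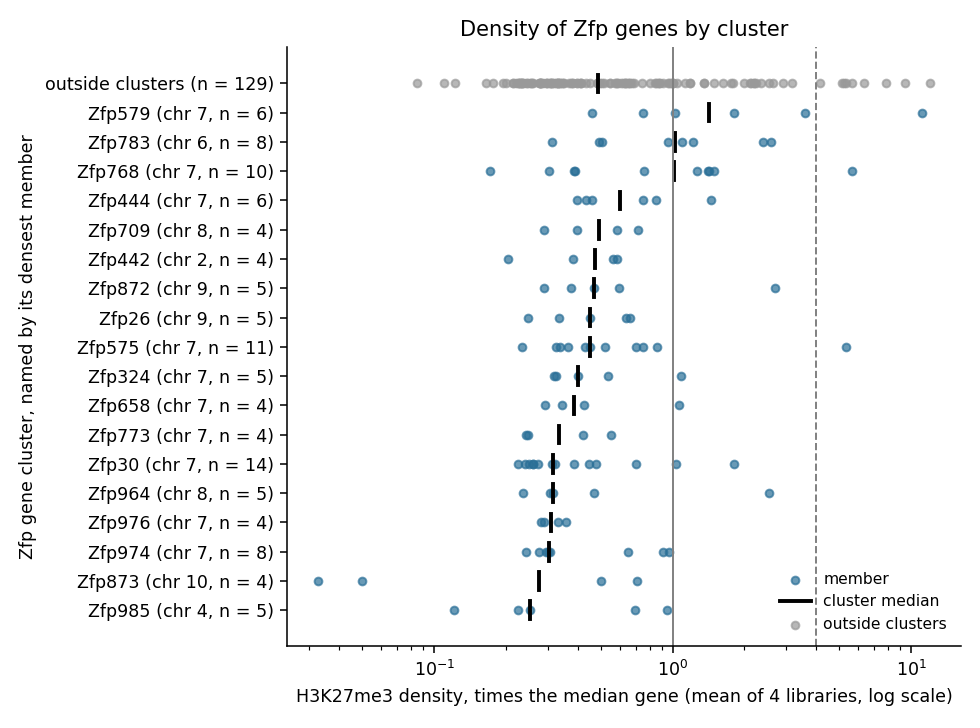
Density of each Zfp gene (horizontal axis, times the median gene, log scale, mean of 4 libraries) by cluster (vertical axis, with chromosome and number of members), with black ticks at the medians, the solid line at the median gene and the dashed line at 4 times. The 3 clusters named after Zfp579, Zfp783 and Zfp768 have medians above 1, and the others range from 0.253 to 0.604.

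Promoters of Zfp genes were richer in CpG than those of all genes. A promoter entry within 500 bp of the interval start was found for 180 members and 14300 genes in all. The CpG ratio, which is the number of CG found over that from C and G content, had a median of 0.668 in Zfp genes, 0.602 in protein coding genes and 0.431 in all genes. A ratio of 0.6 or more was seen in 112 of 180 Zfp genes (62.2%), in 50.3% of protein coding genes and in 39.6% of all genes. At 0.8 or more the shares were 26.7%, 29.3% and 22.9%, so there Zfp genes lay below protein coding genes. At least 1 CG was present in 100% of Zfp windows and 94.0% of all windows. The motif searched was CG, which reads the same on both strands. Zfp genes with a ratio under 0.4 had a median density of 0.322 times the median gene (n = 33), those from 0.4 to 0.6 0.451 times (n = 35), those from 0.6 to 0.8 0.406 times (n = 64) and those from 0.8 up 0.471 times (n = 48). Over all genes the same classes stood at 1.18, 1.13, 0.571 and 0.386 times. Median density thus fell from class to class over all genes and had no steady order in Zfp genes, where the class of fewest CpG was the lowest. The share of marked genes had another order. In the same classes it was 3.11%, 7.73%, 7.61% and 5.17% over all genes. Of the Zfp genes in these classes 0, 2, 2 and 3 were marked. Spearman's rho between CpG ratio and density was 0.15 across the 180 Zfp genes and -0.31 across the 14300 genes; the genes of a cluster share sequence and are not independent. Of the sequences printed above, Zfp579 and Zfp853 had ratios of 0.421 and 0.680, and Zfp781 and Zfp433 of 0.460 and 0.409. The second densest and the least dense member thus differed little in this measure, whereas Zfp853 lay above both sparse members. The median ratio was 0.778 in marked Zfp genes with a promoter entry (n = 7) and 0.660 in the other Zfp genes (n = 173).

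Lists of members drawn up by role differed in median density. The lists were chosen with earlier results of these data known, so their counts and medians are descriptions and no test of role. Of 29 Zfp genes that act in a lineage or tissue 19 were measured, with a median of 1.18 times the median gene and 3 marked (Zfp703, Zfp467 and Zfp648). Zfp423, which commits cells to the fat lineage, stood at 0.872 times, Zfp469, whose human counterpart is mutated in brittle cornea, at 1.76 times and Zfp462 at 0.332 times. Zfp296, which stem cells use, was the lowest at 0.307 times. This list had the highest median of the 3 large Zfp lists.

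Of 24 Zfp genes of imprint and retroelement repression 15 were measured, with a median of 0.426 times and 0 marked. Zfp809, which silences retroviruses that use a proline tRNA primer, had 0.290 times, Zfp568, a repressor of an Igf2 promoter, 0.251 times and Zfp445, a guardian of imprints, 1.5 times. The densest were Zfp92 at 2.64 times and Zfp992 at 2.12 times. Of 31 broadly used Zfp genes 18 were measured, with a median of 0.321 times and 0 marked. Zfp143, an activator at many promoters, had 0.253 times and Zfp281 0.245 times, while Zfp362 reached 2.11 times. In the Zfp36 family of RNA-binding proteins Zfp36, which destabilises cytokine messenger RNA, had 0.959 times and Zfp36l3 5.23 times.

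The partners of KRAB zinc finger proteins were lower still. Of 31 genes of the co-repressor pathway 17 were measured, with a median of 0.264 times and 0 marked, and 17 of 17 lay below the median gene. Trim28, the scaffold that binds KRAB domains, stood at 0.310 times, Setdb1 at 0.264 times and Dnmt1, which maintains DNA methylation, at 0.288 times. The highest was Ehmt1, an H3K9 methyltransferase, at 0.416 times.

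The next question was whether H3K27me3 over Zfp genes changed when ERK was activated for 2 h. No Zfp gene passed: 0 of 241 were called at an adjusted p under 0.05 by edgeR's quasi-likelihood test, beside 0% of all genes and of all 50037 intervals tested. At an unadjusted p under 0.05 there were 0 members, and DESeq2 called 0 members too. With clone as a replicate block, since each clone was sampled at 0 h and at 2 h, the test again called 0, with 7 members at an unadjusted p under 0.05 and a smallest adjusted p of 1.00. The median log2 change was 0.02 over Zfp genes and 0.00 over all genes. In Zfp genes it was -0.03 for clone A and 0.06 for clone B. Both clones rose in 65 members, both fell in 55 and they went opposite ways in 121. The 2 times did not overlap in 41 members (17.0%), beside 19.4% of all genes.

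The precision of single genes limits what could be seen. The 95% interval of the change lay within 1.5-fold in either direction for 174 of 241 members, and for 224 with the clone block. Among the 12 marked members 9 were higher at 2 h in both clones and 0 lower in both, with a median change of 0.09. Of all 1170 marked genes 37.2% were higher in both clones and 19.8% lower in both, with a median change of 0.03. This count was noticed in these data and none of the 12 passed the test.

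None having passed, the members with the smallest p among those moving alike in A and B are given as values. Their SEs and p-values come from the unpaired fit, which does not pair the libraries of a clone. Zfp469 had 0.588 and 0.614 at 0 h in clones A and B and 0.651 and 0.662 at 2 h, and its log2 change was 0.13 ± 0.07 (SE, n = 2 per time, unadjusted p = 0.136 by edgeR). Zfp768, with the 4 densities given above, had 0.28 ± 0.17 (unadjusted p = 0.150). The groups did not overlap in Zfp469, whereas in Zfp768 clone A at 0 h lay above clone B at 2 h. Leaving out clone A at 2 h took the value of Zfp768 to 0.07, leaving out clone B at 0 h to 0.16 and leaving out clone B at 2 h to 0.44. Zfp507, Zfp276 and Zfp384 had log2 changes of 0.22, 0.20 and 0.21, and with 1 library left out these ran from 0.13 to 0.31, from 0.09 to 0.32 and from 0.10 to 0.31. The interval of Zfp384 shares 96.5% of its length with an overlapping gene, and that of Zfp276 13.8% with Fanca.

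In the other direction Zfp260 had 0.114 and 0.106 at 0 h and 0.0859 and 0.0824 at 2 h. Its log2 change was -0.39 ± 0.17 (unadjusted p = 0.0532 by edgeR, the smallest of all members in the unpaired fit). With the clone block 7 members had an unadjusted p under 0.05 by edgeR. Zfp90 had 0.333 and 0.326 at 0 h and 0.260 and 0.286 at 2 h, a change of -0.27 ± 0.13. Neither gene had overlapping times, and the adjusted p of both was 1.00. Zfp971, Zfp105 and Zfp534 had -0.40, -0.35 and -0.31. For Zfp105 the value rests on clone A at 0 h (0.215 against 0.134 to 0.139 in the other libraries), and without that library it was 0.02. For Zfp534 the value was -0.09 without clone A at 0 h and -0.12 without clone B at 2 h, and for Zfp971 it was -0.26 without clone A at 0 h.

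The clones differed at many Zfp genes, as they did over the whole table. Clone A was compared with clone B over 2 libraries each, 1 per time, which are not replicate clones. Of 241 Zfp genes, 63 (26.1%) passed edgeR's test at an adjusted p under 0.05, beside 25.5% of all genes. The 39 that were higher in clone A stood beside 15.4% of all genes, and the 24 that were lower beside 10.1%. DESeq2 called 35 members, 25 higher and 10 lower, all among the 63. The share of Zfp genes called was near the background, so this is no result about Zfp genes as a family. Of the stem cell markers 2 of 8 were higher in clone A (Utf1 by 1.18 and Tbx3 by 0.79 on the log2 scale) and 0 lower. Of the fibroblast markers 1 of 8 was higher and 2 lower. Of the primitive endoderm markers 1 of 3 was higher (Sox17 by 0.27) and 0 lower. Of the genes used in all cells 0 of 4 were higher and 1 was lower (B2m, -0.68). The part of these markers in the differences of Zfp genes was not tested. Densities of the clones did not overlap in 134 members (55.6%), beside 59.9% of all genes.

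Among the members higher in clone A, Zfp981 on chromosome 4 (146502000 to 146539395) had the smallest adjusted p. It measured 0.80 and 0.727 in clone A at 0 h and 2 h, and 0.502 and 0.525 in clone B, a log2 difference of 0.59 ± 0.06 (SE, n = 2 per clone, adjusted p = 1.98e-20 by edgeR). Zfp981 overlaps 1700095A21Rik over 54.4% of its length and shares those reads. Zfp660 had the largest difference of the 10 named, with 0.482 and 0.512 in clone A against 0.300 and 0.323 in clone B, 0.70 ± 0.11 (adjusted p = 1.05e-09). Zfp30 had 0.780 and 0.766 in clone A against 0.486 and 0.556 in clone B, 0.59 ± 0.09 (adjusted p = 8.88e-10). In all 3 genes the clones were apart at both times.

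Zfp873, Zfp787 and Zfp985 were higher in clone A by 0.57, 0.49 and 0.46 on the log2 scale, and Zfp423 by 0.31. Also higher in clone A were Zfp579 and Zfp316, which are marked, and Zfp541, which stood below the limit at 3.18 times the median gene. Zfp579 differed by 0.42 ± 0.07 (adjusted p = 3.77e-08), Zfp316 by 0.32 ± 0.05 (adjusted p = 7.81e-08) and Zfp541 by 0.31 ± 0.05 (adjusted p = 2.91e-07). Of the 12 marked members 6 were higher in clone A and 0 lower. Over all marked genes 55.6% were called, and 94.4% of those were higher in clone A, so the Zfp genes went with the other marked genes.

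Of the members lower in clone A, Zfp658 on chromosome 7 (43562202 to 43576142) came first. It measured 0.307 and 0.313 in clone A at 0 h and 2 h against 0.477 and 0.423 in clone B, a log2 difference of -0.52 ± 0.10 (adjusted p = 1.74e-06 by edgeR). Zfp819, in the same cluster, had 0.124 and 0.108 in clone A against 0.189 and 0.188 in clone B, -0.69 ± 0.16 (adjusted p = 9.16e-05). Zfp715 of that cluster was lower as well, and its last member, Zfp719, did not pass. Zfp956 had 0.357 and 0.359 in clone A against 0.514 and 0.504 in clone B, -0.49 ± 0.10 (adjusted p = 9.04e-06).

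Zfp442, Zfp248 and the pseudogene Zfp862-ps were lower in clone A by log2 differences of -0.33, -0.33 and -0.35, and Zfp831 and Zfp618 by -0.23 and -0.19. Zfp866 had -0.62 and Zfp558 -0.37, and each lost its call without 1 library of clone A (adjusted p = 0.0693 for Zfp866 without 0 h and 0.166 for Zfp558 without 2 h, by edgeR). Most genes of this group lie near or below the median gene; Zfp831 is the densest, at 2.34 times.

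**Figure D5:**
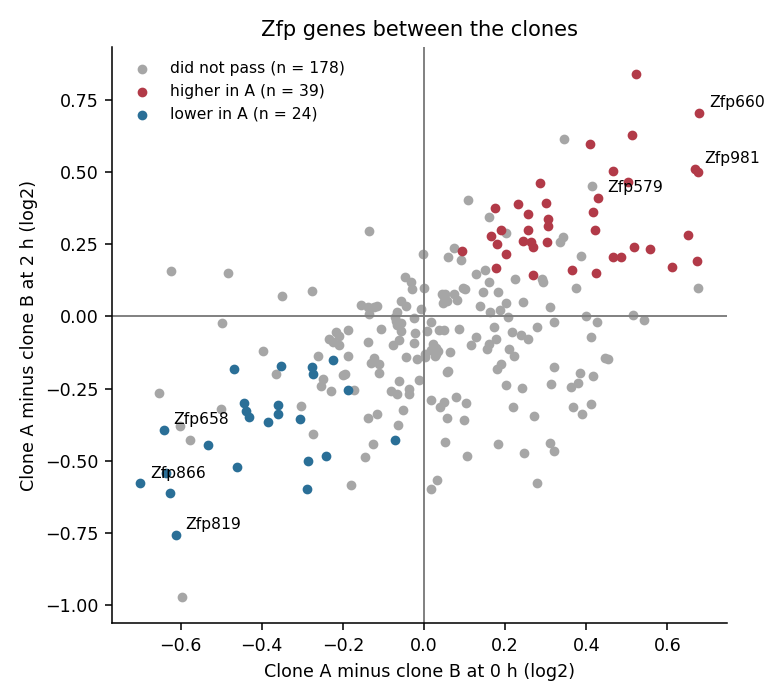
Log2 difference of clone A minus clone B at 2 h (vertical axis) against that at 0 h (horizontal axis) for 241 Zfp genes, each from 1 library per clone and time. The 39 genes called higher in clone A (red) lie to the upper right, the 24 called lower (blue) to the lower left, and the 178 others (grey) spread around zero.

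A stretch of chromosome 4 from Zfp990 to Zfp933, known for KRAB zinc finger genes that act on retroelements, was picked out after its values were seen. Of its 12 Zfp genes 5 were higher in clone A and 0 lower: Zfp990 (0.39), Zfp980 (0.34), Zfp600 (0.28), Zfp981 (0.59) and Zfp985 (0.46), all log2 differences. Of the 13 other genes tested there 3 were higher (1700095A21Rik, Gm13238 and Gm13034) and 0 lower. Over all genes 15.4% were higher in clone A and 10.1% lower, and a stretch chosen for its values cannot be read against that share. Zfp992, next to Zfp981, had 0.812 and 0.734 in clone A against 0.766 and 0.726 in clone B, a difference of 0.07 ± 0.07 that did not pass. The difference thus varied from one neighbour to the next. Near-identical copies in this stretch make the split of reads between genes uncertain.

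Among the lists by role, 6 of 19 lineage and tissue regulators were called between the clones (4 higher in clone A, 2 lower), 6 of 15 repressors of imprints and retroelements (5 higher, 1 lower) and 3 of 18 broadly used genes (3 higher, 0 lower). These shares, 31.6%, 40.0% and 16.7%, stand beside 25.5% of all genes, and with so few members nothing particular to a list is read from them. Of the 17 co-repressor genes 3 were called (17.6%): Setdb1 (0.45) and Dnmt1 (0.36) were higher in clone A and Atf7ip, a partner of Setdb1, was lower (-0.22). In the comparison of times 0 members of any list passed.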

How the data were processed

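Per the file headers, the authors deposited raw counts of reads for every interval. Bowtie2, bedtools and mm10 are named in the submitters' processing notes, but for versions, filters, strand use and multiply mapped reads nothing is given in the sources used here. Columns of the table carry the 4 H3K27me3 libraries (2 per time, clones A and B). A further 12 unlabelled per-library columns were not used. The members and lists were chosen with earlier results of these data known. Interval starts count from 0 and were shifted to count from 1.

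All intervals were fitted with edgeR 4.0.16 (R 4.3.3) quasi-likelihood tests with TMM factors and filterByExpr, and p-values were Benjamini-Hochberg adjusted over the 50037 intervals kept; SE is that of the log2 change. All 241 members passed this filter, 11 of them with a mean count under 50. Changes within 1 clone used counts plus 0.5. Members overlapping another named gene number 44. Per the labels each clone was taken at 0 h and 2 h, which pairs its libraries. Their deviations from the mean of each time correlated (r = 0.570 across 241 members, r = 0.430 across all genes). Both designs were checked on simulated data, with 50 changed intervals per fold. The unpaired test of the times recovered 6% of changes of 1.25-fold, 34% of 1.5-fold and 76% of 2-fold. With the clone block these were 52%, 68% and 92%. Modest changes over time could therefore be missed by the main test. Alternative settings comprised DESeq2 1.42.0, different scaling factors, filters, a block, other limits, and leaving out each library. Counts are of reads without molecular identifiers. Named genes were the 12 densest, the 3 on each side of the limit for marked, the 5 least dense, up to 10 per direction and comparison by p (or, with none called, 5 that moved alike in both clones), the densest and least dense of each cluster, and the lists; the rest were chosen after their values were seen. Numbers of zinc fingers per protein were planned as a comparison and not analysed here. Python 3.11.15 and SciPy 1.17.1 were used.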

Additional observations from a re-analysis of the deposited data

Results flagged for a closer look

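The median change of Zfp genes over 2 h of 4OHT went opposite ways in the 2 clones, which is why it is listed. Over 241 members it was -0.03 on the log2 scale for clone A but 0.06 for clone B, a difference of -0.0847. Over the 112 members in clusters the medians were -0.03 and 0.04, a difference of -0.0659, and over the 129 members outside clusters -0.03 and 0.06, a difference of -0.0900. Each clone has 1 library per time, and the difference was not tested. Over all named genes the medians were 0.01 and -0.01, also of opposite sign, and over all genes below the median gene they were -0.04 and 0.04.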

How the results depend on the processing

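With clone as a replicate block, which pairs the libraries of a clone, 0 Zfp genes and 0 intervals were called between the times, as in the unpaired fit; 0 members were also called under every other factor, filter, tool and left-out library tried. Leaving out 1 library gave 0 to 1 intervals called over time. Between the clones, 63 members were called in the main analysis, 59 to 66 under other factors, filters, sets of intervals and time as a block, 35 with DESeq2 and 41 to 49 with 1 library left out (41 without clone B at 0 h, 39 of them among the 63). The main analysis called 13765 intervals; in separate fits DESeq2 called 8780, 1 interval per gene 5314 of 20008 tested, the same with time as a block 5232, and leaving out 1 library 9476 to 11838. Fewer intervals tested or fewer samples belong to these last settings by construction; for DESeq2 the cause was not tested. Of the members named in the comparison of times, Zfp105 alone changed sign with a library left out: its main value of -0.35 became 0.0234 without clone A at 0 h and -0.66 without clone B at 0 h. Marked members numbered 27 at 2 times and 3 at 8 times the median gene. They were 12 with each library left out. Without members that overlap another gene 10 were marked and the median density was 0.154. Clusters of 6 or more held 63 members with a median of 0.489 times the median gene, which then lay above that of the members outside (0.430). Low counts limit the least dense members, such as Zfp433.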

Other observations

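Median density was uneven over the chromosomes. The 19 members on chromosome 6 had a median of 0.967 times the median gene, the highest of the 11 chromosomes with members, and 2 of them, Zfp467 and Zfp9, were marked. The 90 members on chromosome 7 had 0.410 times, the 24 on chromosome 8 0.618 times, the 9 on the X chromosome 0.610 times and the 4 on chromosome 1 0.276 times. On chromosome 6 the median density ran from 0.304 to 0.387 over the 4 libraries. Between the clones, called members were more often lower than higher in clone A on chromosomes 6 (5 against 3 of 19) and 2 (3 against 1 of 23). They were more often higher on chromosomes 4 (6 against 1 of 23), 9 (6 against 2 of 20), 8 (4 against 1 of 24) and X (4 against 0 of 9). Over all genes 15.4% were higher and 10.1% lower. On chromosome 4, 5 of the 6 lie in the stretch from Zfp990 to Zfp933 that was picked for its values. With so few members nothing particular to a chromosome is read from these counts. None of these differences between chromosomes was tested.

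In the stretch of chromosome 4 named in the report, the densest interval belonged to no Zfp gene. The predicted gene Gm13034 stood at 5.41 times the median gene and measured 2.89 and 2.59 in clone A at 0 h and 2 h and 1.10 and 1.16 in clone B, a log2 difference of 1.29 ± 0.14 (adjusted p = 9.11e-18 by edgeR). Its interval is 1195 bp long and was singled out after its values were seen.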
